A study of Mus musculus with 90 samples.

Results

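The 22 hippocampal arrays of mice given an antisense oligonucleotide (ASO) against Cd33 are described here, out of 90 arrays in the series, by how far each had kept its Cd33 signal and which other genes moved with it. The arrays were taken by their labels, 9 from a 14-day and 13 from a 28-day infusion, and were ordered by the normalized log2 intensity of the brighter of the 2 Cd33 probes. Every other named gene was then related to that value with the duration as covariate. The animals, APP/PS1 double transgenic mice used to model amyloid deposition, carried the same transgenes in every group. The ASO, either against Cd33 or a control without a target, was pumped into the right lateral ventricle at 40 µg in 6 µL per day from 18 weeks of age, and the whole left hippocampus and a piece of left frontal cortex were collected at 22 weeks. In the 14-day groups the pump was removed after the infusion, so that an interval without ASO preceded collection, and in the 28-day groups it was replaced and the infusion went on. The groups set beside these arrays were 22 control ASO hippocampal arrays, 9 at 14 days and 13 at 28 days, and 23 CD33 ASO arrays of frontal cortex, of which 21 came from animals that also had a hippocampal array. Each array of a group came from a separate animal.

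CD33 is a sialic acid-binding receptor of the Siglec family that sits on myeloid cells, which in the brain parenchyma are the microglia. The human protein carries inhibitory motifs that recruit phosphatases, and the mouse protein differs from it in its signalling part. An ASO of this kind pairs with its transcript inside the cell and leads to its degradation, and the dose that reaches a region can differ between animals. In bulk tissue, fewer cells of a type and less RNA per cell cannot be told apart. Of the labelled tissue, 8 hippocampal subfield genes were tested, among them the granule cell gene C1ql2 and the CA1 gene Fibcd1. They summed to between 17579 and 21906 intensity units (normalized, summed on the linear scale) on the 22 arrays, though not all 8 were detected on every array. Lists of adjacent tissue, 7 genes each, summed to 1877 to 2661 for neocortical layers and 3505 to 5009 for striatum and thalamus. The identity of the tissue was not tested beyond these sums. The arrays correlated at 0.976 to 0.993 with each other over the genes, and 0 pairs were identical.

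Cd33 was low on nearly all of these arrays and close to the detection limit. At 14 days its normalized log2 intensity was 4.94 at the lowest, 5.21 at the median and 5.92 at the highest of 9 arrays (mean 5.32 ± 0.36, SD, n = 9). At 28 days the lowest of 13 arrays stood at 4.64, the median at 4.95 and the highest at 6.58 (mean 5.15 ± 0.56, SD, n = 13). The control ASO arrays lay between 6.25 and 7.03. Thus 21 of 22 CD33 ASO arrays were below every control array, and the array of the 28-day replicate 11, at 6.58, was inside the control range. Its Avil level of 4.95 was also inside the control range of 4.59 to 5.10, and its cortical Cd33 of 6.83 inside that of control cortex, 6.37 to 7.56, as were 8 of the 21 cortical values. Whether this animal received the ASO as labelled was not tested, and it is kept as labelled, with the counts of calls also given without it. The next arrays were the 14-day replicates 3 and 8, at 5.92 and 5.88, and the 28-day replicates 10 and 3, at 5.77 and 5.75, and the other 17 ran from 5.41 down to 4.64. The probe was called detected, at a detection p-value under 0.01, on 2 of 9 arrays at 14 days and 1 of 13 at 28 days, against all 22 control arrays. Differences among the other 19 arrays are differences in a signal not well above background, and these are the values that order them.

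**Figure D1:**
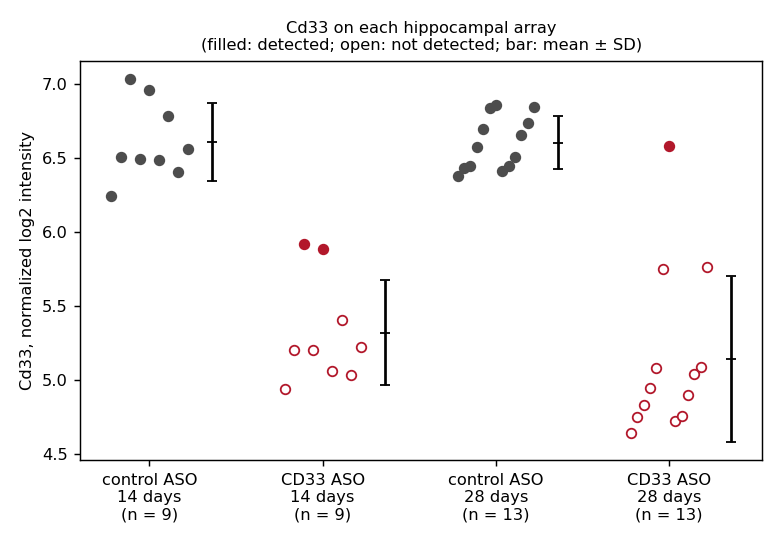
Normalized log2 intensity of Cd33 on each of the 44 hippocampal arrays, by ASO and duration, with the mean ± SD at the right of each group; filled points were called detected. The CD33 ASO arrays span 4.64 to 6.58 with 3 of 22 detected, and 1 of them lies in the control range of 6.25 to 7.03.

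The second Cd33 probe was detected on none of the 22 arrays. Its correlation with the first, of values centred within duration, was r = 0.609 (permutation p = 0.0019, adjusted over 3 relations 0.0057) and rho = 0.400 (permutation p = 0.058, adjusted 0.17), and r = 0.463 without the 2 arrays farthest from the median Cd33. With the share of probes detected on an array Cd33 had r = 0.098 (permutation p = 0.66, adjusted 0.95) and rho = 0.283 (permutation p = 0.22, adjusted 0.33). With the median signal it had r = 0.017 (permutation p = 0.95, adjusted 0.95) and rho = -0.006 (permutation p = 0.98, adjusted 0.98). Neither relation passed, and their part in the slopes was not tested further. The 6 chips held 3 or 4 of these arrays each and took an adjusted R2 of -0.034 of Cd33.

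Cd33 measured in the frontal cortex of the same animals gave a second reading that the ordering did not use. In the 21 animals cortical Cd33 was 4.97 at the lowest, 6.22 at the median and 6.83 at the highest, and it was detected in 18. Animals with more hippocampal Cd33 also had more cortical Cd33, with r = 0.610 (permutation p = 0.0082) and rho = 0.665 (permutation p = 0.0021), both of values centred within duration. Without the 2 animals farthest from the median of hippocampal Cd33 the values were r = 0.546 (permutation p = 0.024) and rho = 0.616 (permutation p = 0.0072). Without the animal of the 28-day replicate 11, which was highest in both tissues, r was 0.515 (permutation p = 0.025). The lowest cortical value belonged to the 28-day replicate 5, whose hippocampal Cd33 of 4.76 was the third lowest of the 22.

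**Figure D2:**
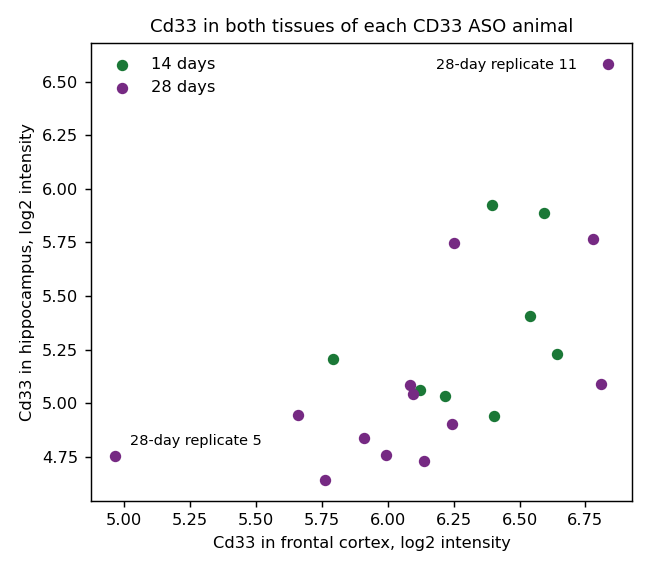
Cd33 in frontal cortex (x axis) against Cd33 in hippocampus (y axis), both as normalized log2 intensity, 1 point for each of 21 CD33 ASO animals. Both tissues rank the 28-day replicate 11 highest, and the 28-day replicate 5 is lowest in cortex at 4.97.

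Over the 22 arrays 8 of 9740 genes passed the threshold for a slope on Cd33 (0.0821% of all genes; limma, Benjamini-Hochberg adjusted p under 0.05), 4 with a positive and 4 with a negative slope. Slopes are in log2 units of the gene per log2 unit of Cd33, so a negative slope means a higher gene level where less Cd33 was left. An unadjusted p under 0.05 was reached by 1166 genes, where 487 would be expected by chance. Genes vary together, so a count by chance can lie far from 487. The positive genes were Opalin and Prr18, both transcripts of oligodendrocytes, Fyco1, an adaptor that moves autophagosomes along microtubules, and Mcam, an adhesion molecule of vessel cells. The negative genes were Avil, which encodes the actin-binding protein advillin known from sensory neurons, Btg1, a growth-restraining factor, Dgka, a diacylglycerol kinase, and Ube2k, a ubiquitin-conjugating enzyme.

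Avil had the largest slope of the 8. At 14 days its level ran from 5.45 through a median of 6.78 to 7.47, and at 28 days from 4.95 through 7.30 to 8.42. On the control ASO arrays it ran from 4.59 to 5.10 and was detected on 0 of 22, against 18 of 22 with the CD33 ASO. Avil was higher with the CD33 ASO by 1.81 at 14 days (adjusted p = 0.0010), the 1 gene of 9740 to pass there (0.0103% of all genes), and by 1.98 ± 0.24 at 28 days (adjusted p = 1.7e-06), where 39 genes passed (0.4%), 16 higher (0.164%) and 23 lower (0.236%). Its lowest CD33 ASO value, 4.95, was on the 28-day replicate 11, the array with the most Cd33, and its highest, 8.42, on the 28-day replicate 5. The slope was -1.54 ± 0.22 (SE, adjusted p = 0.0042), with r = -0.833 (permutation p = 2e-05) and rho = -0.790 (permutation p = 1e-04) over the 22 arrays and r = -0.806 without the 2 farthest from the median. Avil was chosen for its small p, so these correlations describe the same relation and do not test it again. Its 2 durations gave slopes of -1.38 and -1.58, neither passing alone, and all 6 chips taken alone gave negative ones, with 3 or 4 arrays each. Among the 8 genes, Dgka and Opalin each had 1 chip of the opposite sign. These are parts of the arrays on which the genes were chosen, so they are a description only.

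The oligodendrocyte transcripts moved in the opposite direction. Opalin, a membrane glycoprotein of myelinating cells, was 9.14, 10.08 and 10.55 at the lowest, median and highest array of 14 days, and 9.05, 9.63 and 11.02 at 28 days. Its slope was 0.82 ± 0.16 (adjusted p = 0.039). Prr18 was 10.66, 11.08 and 11.42 at 14 days and 10.59, 10.91 and 11.63 at 28 days, with a slope of 0.52 ± 0.08 (adjusted p = 0.0042). Both genes had their highest value on the 28-day replicate 11. The control ASO ranges, 9.45 to 10.98 for Opalin and 10.69 to 11.57 for Prr18, overlapped those of the CD33 ASO arrays over most of their width, and neither gene passed between the ASOs at 28 days (-0.29, adjusted p = 0.62, and -0.12, adjusted p = 0.79).

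Fyco1 was 8.45, 8.85 and 9.06 at 14 days and 8.11, 8.58 and 9.39 at 28 days, with a slope of 0.57 ± 0.09 (adjusted p = 0.011). It was lower with the CD33 ASO than with the control at 28 days by -0.52 ± 0.12 (adjusted p = 0.020). Mcam was 7.07, 7.62 and 8.05 at 14 days and 6.72, 7.22 and 8.17 at 28 days, and its slope was 0.53 ± 0.10 (adjusted p = 0.039). Without the 2 arrays farthest from the median its r dropped from 0.762 to 0.482. The other negative slopes were shallow: -0.28 ± 0.05 for Btg1 (adjusted p = 0.011), -0.27 ± 0.05 for Dgka (adjusted p = 0.015) and -0.24 ± 0.05 for Ube2k (adjusted p = 0.039). Btg1 ranged over only 10.79 to 11.37, Dgka over 8.46 to 9.15 and Ube2k over 10.78 to 11.36, and each of the 3 was lowest on the array with the most Cd33. Another probe of Dgka, detected on all 22 arrays, gave -0.05, and one of Ube2k, also detected on all, -0.09. The other probes of Btg1 gave -0.15 and -0.28, and those of Mcam 0.26 and 0.25, so that all of these kept the direction and most were nearer 0.

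**Figure D3:**
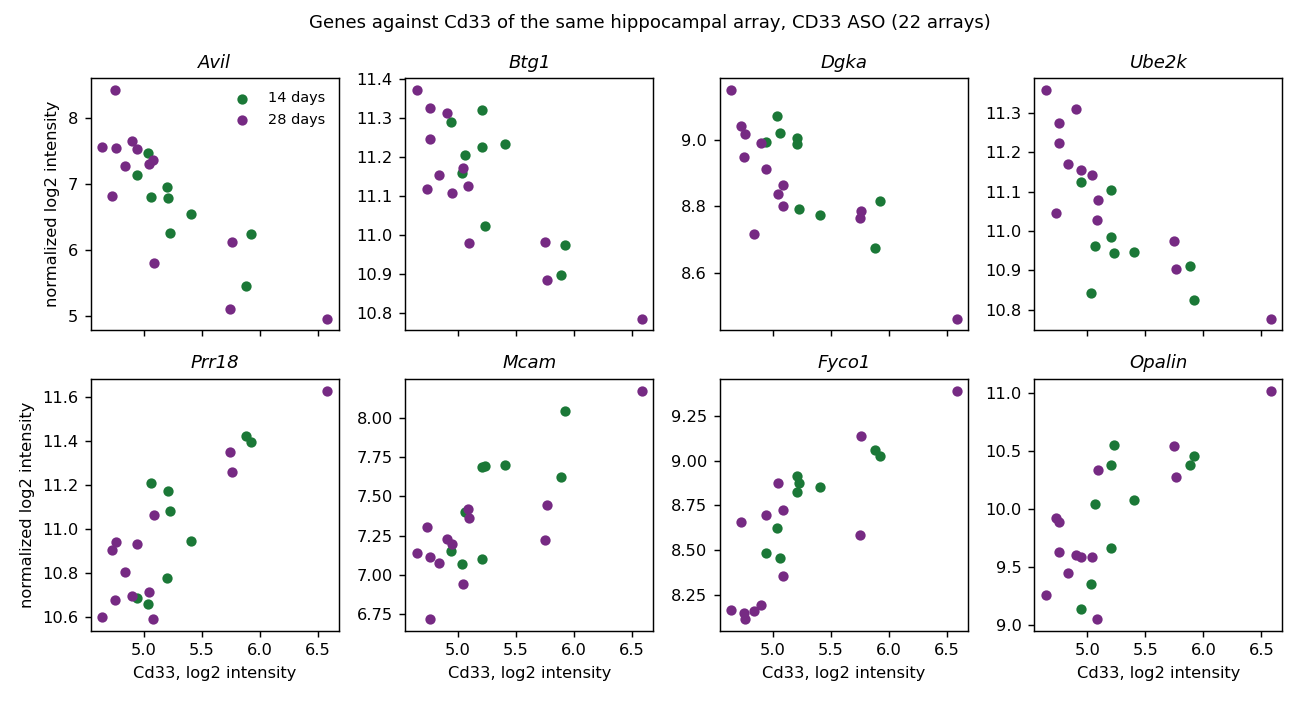
Normalized log2 intensity of the 8 genes that passed (y axes, each on its own scale) against Cd33 of the same array (x axis), 1 point per array, green for 14 and purple for 28 days. The single point at the right of every panel is the 28-day replicate 11, and Avil falls from 8.42 to 4.95 across the range of Cd33.

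The calls rested on 1 array, the one whose Cd33 and Avil lay in the control ranges. Without the 28-day replicate 11 none of the 9740 genes passed (872 at an unadjusted p under 0.05), while all 8 slopes kept their direction, at -1.72 for Avil (adjusted p = 0.11), 0.56 for Prr18 (adjusted p = 0.11) and 0.84 for Opalin (adjusted p = 0.25). None passed either when the undetected Cd33 values were set to the lowest detected value of their array (582 unadjusted), which leaves 3 arrays with their own Cd33 value. That lowest value differed between arrays, from 5.68 to 6.17, so the undetected arrays were not made equal. The undetected 14-day replicate 4 stood at 6.17 there, above the detected 14-day replicate 3 at 5.92. This setting therefore cannot show the fit with all undetected arrays at the same Cd33. With the chip as a block none passed (958 unadjusted), Avil at -1.57 (adjusted p = 0.052) and Prr18 at 0.55 (adjusted p = 0.052).

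Just outside the threshold stood 8 genes with adjusted p-values of 0.0545 to 0.0548, described without a call. Of these, 3 belong to the oligodendrocyte lineage and had positive slopes: Bcas1, a gene of newly myelinating cells, at 0.33, Lpar1, a lysophosphatidic acid receptor, at 0.44, and the transcription factor Olig1 at 0.25. Flt1, a VEGF receptor of endothelial cells, stood at 0.29. Negative were Cd180, a Toll-like receptor homologue of immune cells, at -0.55, the small heat shock protein gene Hspb1 at -0.47, Nudt12 at -0.45 and the glucocorticoid-induced cochaperone gene Fkbp5 at -0.38. In ranks, rho was 0.774 for Olig1, 0.701 for Lpar1 and 0.423 for Bcas1. Without the 2 arrays farthest from the median Cd33 it was 0.720, 0.653 and 0.284. For Fkbp5 rho was -0.492, and -0.352 without these arrays, the weakest of the negative genes in both. By absolute partial correlation with Cd33 given the duration, over 22 arrays, the 10 genes most like it were Prr18 (0.84), Btg1 (-0.84), Avil (-0.83), Dgka (-0.82), Fyco1 (0.80), Ube2k (-0.80), 9530077C05Rik (-0.76), Mcam (0.76), Olig1 (0.76) and Usp54 (-0.76).

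With the oligodendrocyte list, all 9 tested genes had positive slopes on Cd33, at a median of 0.27, where 51.3% of all genes were positive at a median of 0.003. Opalin passed, and 7 others reached an unadjusted p under 0.05, as did 6.3% of all genes with a positive slope. The steepest after Opalin was the myelin gene Mog at 0.53 (adjusted p = 0.069), Mbp, the major myelin basic protein gene, was at 0.15, and the shallowest was Cldn11 at 0.15. The summed level of the 9 genes ran from 45076 to 58453 intensity units at 14 days and from 43199 to 63629 at 28 days, highest on the 28-day replicate 11. With the mean of this list as a further covariate, an alternative chosen after seeing the data, none of the 9740 genes passed (864 unadjusted), and the slope of Avil was -1.35 (adjusted p = 0.25) and that of Prr18 0.29 (adjusted p = 0.39). That mean includes the called gene Opalin, so it is partly built from a call. The part of oligodendrocyte content in the calls was not tested beyond this.

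Most immune and glial activation genes had negative slopes on the Cd33 of the array, and none of those on the lists passed. Of 17 interferon-stimulated genes 16 had negative slopes (median -0.46, 10 with an unadjusted p under 0.05), such as Usp18, which removes ISG15 from proteins, at -0.96 (adjusted p = 0.22) and Ifit3 at -0.86 (adjusted p = 0.17). Over all genes 5.7% had a negative slope with an unadjusted p under 0.05. All 9 complement genes were negative (median -0.33), among them the C1q chains C1qc at -0.40 and C1qb at -0.41 (adjusted p = 0.11 and 0.15). All 12 reactive astrocyte genes were negative (median -0.38), and so were 10 of 11 MHC class I genes (median -0.17). Microglial lists were closer to 0: 10 of 14 general genes were negative (median -0.11), 21 of 26 plaque-associated genes (median -0.10) and 12 of 15 homeostatic genes (median -0.08), the last with P2ry12, the microglial ADP receptor gene, at 0.44. The brain border macrophage list had 4 of 7 positive, with Pf4 at 0.55 and the mannose receptor gene Mrc1 at 0.38, although Pf4 was detected on only 2 of the 22 arrays.

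Related to the cortical Cd33 of the same animal, the hippocampal arrays gave more calls. Over 21 arrays 196 of 9740 genes passed (2.01%), 58 positive (0.595%) and 138 negative (1.42%), and 1652 had an unadjusted p under 0.05. This predictor was measured on another array, from the same animal, and the cortical chips held the same sets of animals as the hippocampal ones. With the chip as a block 64 passed, 50 of them among the 196. The smallest p-values belonged to Pdpn, which encodes podoplanin, at a slope of -0.60 (adjusted p = 0.00067), the mitochondrial RNA-binding protein gene Cluh at 0.47 (adjusted p = 0.00079) and Cd180 at -0.71 (adjusted p = 0.0050). Avil passed here too, at -1.58 ± 0.30 (adjusted p = 0.014), as did Btg1 at -0.26 (adjusted p = 0.040). Of the 8 genes called on hippocampal Cd33, the other 6 kept their direction without passing, Fyco1 at 0.51 (adjusted p = 0.056). These 8 genes were chosen on the same hippocampal arrays, and Cd33 of both tissues correlated at r = 0.610. Their slopes here therefore describe a related fit and do not test the calls again.

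Among the largest negative slopes were genes of myeloid cells and of the interferon response. Fcgr4, an activating IgG receptor gene, was 6.51, 7.59 and 9.54 at the lowest, median and highest 14-day array and 6.17, 7.84 and 12.21 at 28 days, against 6.19 to 8.19 on the control arrays. Its slope was -2.30 ± 0.48 (adjusted p = 0.017). Lgals3, which encodes galectin-3 of phagocytic microglia, ran from 8.66 to 9.54 at 14 days and from 7.95 to 10.82 at 28 days, with a slope of -1.20 ± 0.20 (adjusted p = 0.0096). Ifit3 ran from 10.01 to 11.90 and from 9.63 to 12.44, with a slope of -1.22 ± 0.25 (adjusted p = 0.017). All 3 had their highest value on the 28-day replicate 5, the animal with the least cortical Cd33. On the 14-day arrays alone the slope of Fcgr4 was 0.04 and that of Ifit3 -1.29, neither passing. Others of the 10 steepest were Fpr2 (-1.64, detected on 4 of 22 arrays, and 0.44 on the 14-day arrays alone), Usp18 (-1.41), Ifi27l2a (-1.28), the lipid droplet coat gene Plin4 (-1.25), Wfdc17 (-1.22) and Tgfbi (-1.22).

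The largest positive slopes included genes of neurons. Vgf, a neuropeptide precursor gene, ran from 11.45 through 11.62 to 11.98 at 14 days and from 10.53 through 11.68 to 12.31 at 28 days, with a slope of 0.65 ± 0.14 (adjusted p = 0.021). Bdnf, the brain-derived neurotrophic factor gene, ran from 9.50 through 9.77 to 10.29 and from 8.56 through 9.71 to 10.52, with a slope of 0.60 ± 0.15 (adjusted p = 0.041). Adcy8, a calcium-stimulated adenylyl cyclase gene, ran from 8.74 through 9.19 to 9.26 and from 8.43 through 8.81 to 9.49, with a slope of 0.48 ± 0.09 (adjusted p = 0.014). All 3 were lowest on the 28-day replicate 5. The others were Hcrtr1, an orexin receptor gene (0.65), Lyzl4 (0.57), Prokr2 (0.55, detected on 5 of 22), Crem (0.53), Lingo4 (0.52, detected on 0 of 22), Ky (0.52) and the glutamate receptor gene Grm7 (0.51). Other Bdnf probes, detected on none of the arrays, had slopes of 0.35 and 0.28, and another Hcrtr1 probe, also undetected, 0.30.

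**Figure D4:**
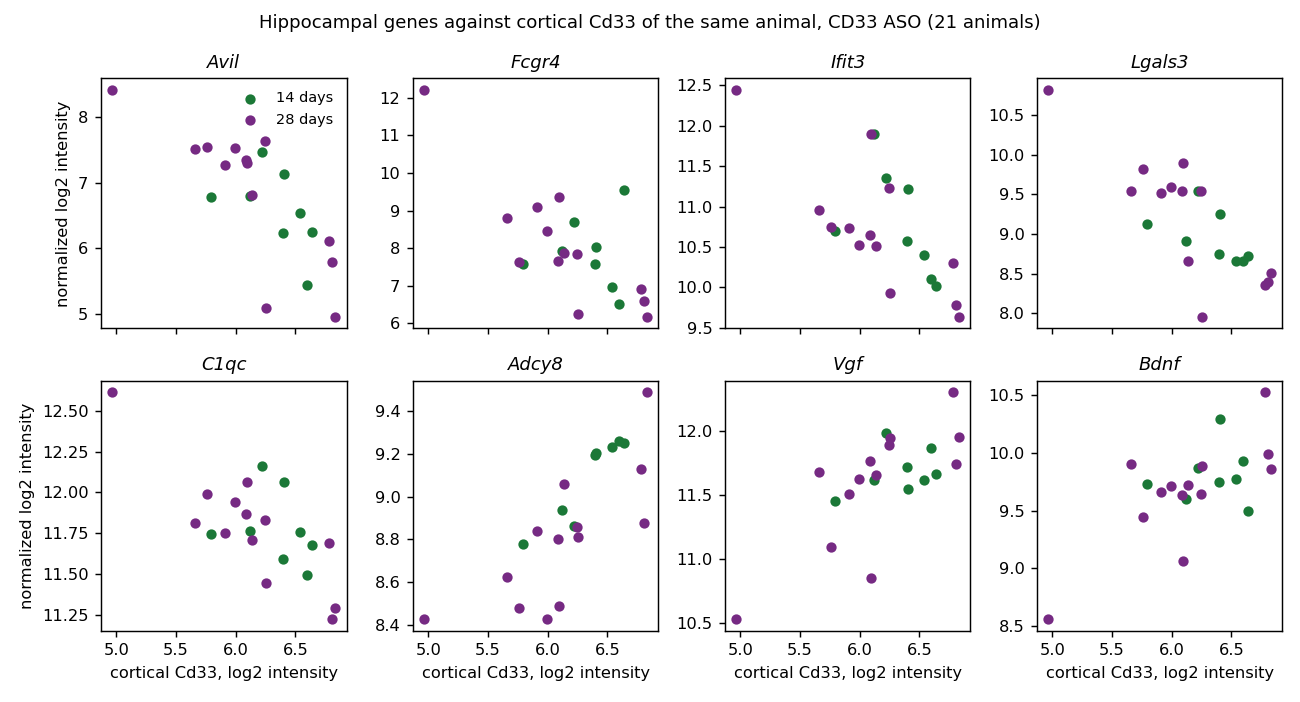
Hippocampal level of 8 genes that passed on cortical Cd33 (y axes, normalized log2 intensity, each on its own scale) against cortical Cd33 of the same animal (x axis), 1 point for each of 21 animals, green for 14 and purple for 28 days. The isolated point at the left of each panel is the 28-day replicate 5, at a cortical Cd33 of 4.97.

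These 196 calls rested on that animal. Without the 28-day replicate 5 none passed (856 unadjusted), and without the 28-day replicate 1, which had a cortical Cd33 of 6.81, 20 did. All 196 slopes kept their direction in both cases. Without the 28-day replicate 11 the count was 148. Without replicate 5 the slope of Fcgr4 was -1.49 (adjusted p = 0.44), that of Ifit3 -1.05 (adjusted p = 0.36), that of Bdnf 0.38 (adjusted p = 0.55) and that of Adcy8 0.58 (adjusted p = 0.088). With the mean of the general microglia list as a covariate none passed (860 unadjusted), and with those of the adjacent-tissue lists 3 did, both chosen after seeing the data. The microglia mean includes C1qb, C1qc and Fcer1g, which are among the calls, so it is partly built from them.

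By list, 9 of 17 interferon-stimulated genes passed on cortical Cd33, all negative, with 16 of 17 below 0 at a median of -0.81, beside a median of 0.01 over all genes. Of all 9740 genes 1.42% passed with a negative slope, and 9.0% had a negative slope with an unadjusted p under 0.05. Oasl2 (-1.19), Isg15 (-1.05), Irf9 (-0.78) and Gbp2 (-0.86) were among them. Of the complement genes 3 of 9 passed: C1qb at -0.59 (adjusted p = 0.014), C1qc at -0.54 (adjusted p = 0.016) and C4b, which astrocytes also make, at -0.60 (adjusted p = 0.041). Of the Siglec, ITAM and ITIM receptors and partners 4 of 13 passed. They were the IgG receptor genes Fcgr3 (-0.43) and Fcgr2b (-0.54), Fcer1g (-0.62), the gene of the signalling chain of Fcgr3, and Ptpn6 (-0.65). The last encodes SHP-1, the phosphatase that inhibitory Siglecs recruit. From the Toll-like receptor and inflammatory list 4 of 14 passed, Tlr2 at -0.68 among them. The plaque-associated list had 6 of 26, with the chemokine gene Ccl4 at -0.82 and the lysozyme gene Lyz2 at -0.76. MHC class I had 3 of 11, with B2m at -0.42 and H2-T23 at -0.78. Some genes stand on more than 1 list, as B2m does on both of these, so the tallies are not of separate genes. Of 26 plaque-associated genes 24 were negative (median -0.28), and Trem2, the receptor gene of that programme, was at -0.32 (adjusted p = 0.095). All 7 MHC class II genes were negative (median -0.57) and 0 passed, 4 having an unadjusted p under 0.05. No oligodendrocyte gene passed here, with 8 of 9 positive at a median of 0.16.

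The level of choroid plexus genes varied widely among these arrays. The 9 genes of that list, led by the transthyretin gene Ttr, summed to between 8411 and 45500 intensity units at 14 days and between 2608 and 49266 at 28 days, beside 3225 to 47973 on the control arrays. On cortical Cd33, 8 of 9 had negative slopes (median -1.67) and 0 passed, 8 with an unadjusted p under 0.05, Sostdc1 at -1.74 (adjusted p = 0.068). On hippocampal Cd33 8 of 9 were negative (median -0.57), and none reached an unadjusted p under 0.05. Of the list, Ttr, Clic6, Kl and Sostdc1 were detected on all 22 arrays. Otx2 was detected on 20, Folr1 on 18, Aqp1 on 16, Kcne2 on 15 and the ciliary gene Foxj1 on 5. The 28-day replicate 5 had the third highest mean log2 level of this list, and the highest of the interferon-stimulated and general microglia lists among the 22. The general microglia list summed to 35707 units there, against a median of 23425 at 28 days. The part of these tissue differences in the slopes was not tested beyond the covariates named.

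**Figure D5:**
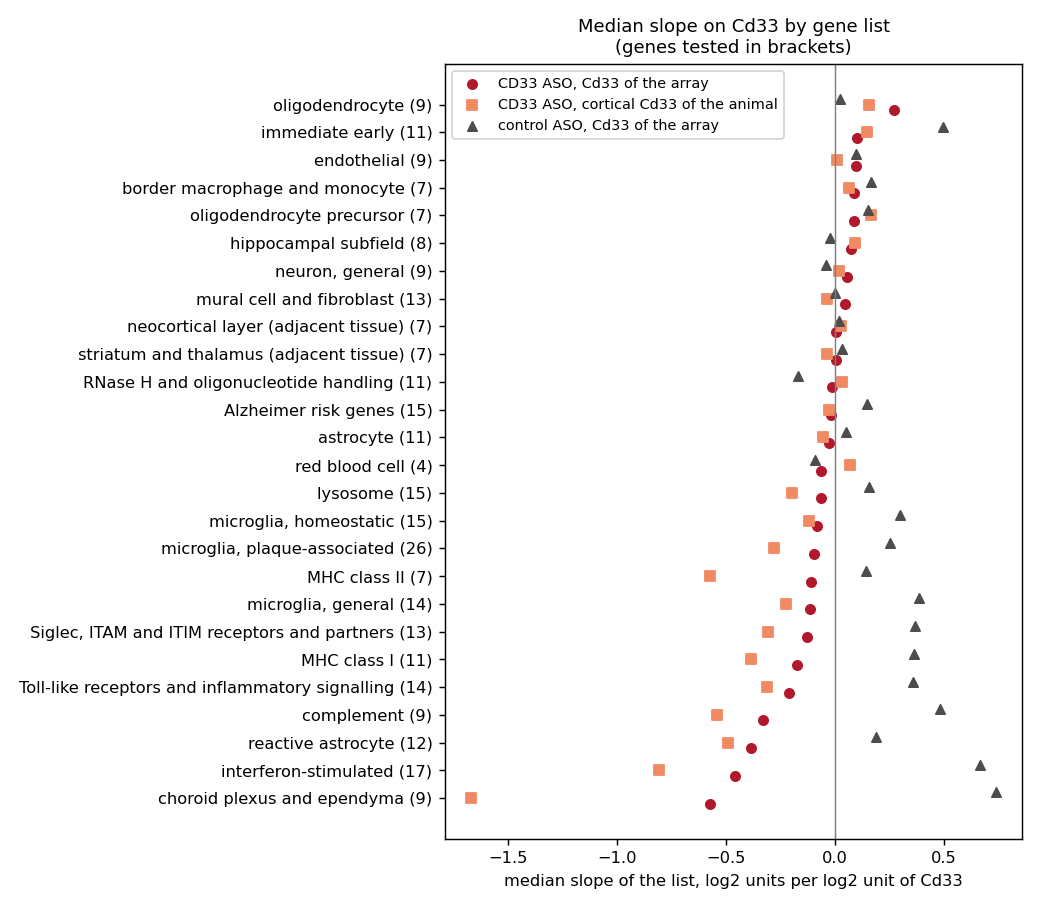
Median slope on Cd33 (x axis, log2 units per log2 unit of Cd33) of each gene list with at least 4 tested genes, for the CD33 ASO hippocampus on the array's own Cd33 (circles) and on the animal's cortical Cd33 (squares), and for the control ASO hippocampus on its own Cd33 (triangles). The interferon-stimulated list sits at -0.46, -0.81 and 0.67 in that order, and the oligodendrocyte list at 0.27, 0.16 and 0.02.

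In the control ASO hippocampus, where Cd33 varied only between 6.25 and 7.03, none of 9740 genes passed on Cd33 (0% called; 463 unadjusted). There 16 of 17 interferon-stimulated genes had positive slopes (median 0.67), as did all 14 general microglia genes (median 0.39), 8 of 9 complement genes (median 0.48) and 8 of 9 choroid plexus genes (median 0.74). Ifit3, for example, had a slope of 1.05 ± 0.38 in the controls and -0.86 ± 0.26 with the CD33 ASO. The difference of the slopes between the ASOs, tested over 44 arrays, passed for none of 9740 genes (0% called; 788 unadjusted), with Ifit3 at -1.91 (adjusted p = 0.36), C1qc at -0.90 (adjusted p = 0.28), Pf4 at 1.53 (adjusted p = 0.17) and Avil at -1.55 (adjusted p = 0.22). The opposite signs of the lists are therefore a description.

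In the frontal cortex of the CD33 ASO animals none of the 9740 genes passed on the Cd33 of the cortical array (0% called; 876 unadjusted). The slope of Avil there was -1.47 (adjusted p = 0.070) and that of Lgals3 -1.12 (adjusted p = 0.066), both in the direction seen in hippocampus, and Opalin stood at 0.59 (adjusted p = 0.13). Between the durations, the slopes of the hippocampal arrays differed for none of the genes (364 unadjusted, smallest adjusted p = 0.999).

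A list of 16 genes had been picked earlier from these data for a difference between the ASOs in both tissues at 28 days, and the ASO contrast shares its CD33 ASO arrays with the slopes, so the values are given side by side only. On hippocampal Cd33 8 of the 16 had positive and 8 negative slopes, and Avil and Fyco1 passed. In 7 of the 16 the slope and the ASO difference at 28 days had opposite signs, so that the fitted level lay farther from the control at less Cd33. These were Avil and Fyco1, which passed, and Sh3d21, Dnajc10, Srrm2, Vwf and Fcna, which did not. Sh3d21 was higher with the CD33 ASO by 0.52 and had a slope of -0.46 (adjusted p = 0.095). Dnajc10, a disulfide reductase gene of the endoplasmic reticulum, differed by -0.47 with a slope of 0.43 (adjusted p = 0.10), and Vwf, the von Willebrand factor gene of endothelial cells, by -0.92 with 0.38 (adjusted p = 0.25). The splicing factor gene Srrm2 differed by -0.38 with a slope of 0.22 (adjusted p = 0.22), and the ficolin gene Fcna by -1.27 with 0.10 (adjusted p = 0.80). In the other 9, Lgals3, Gpnmb, Lyz1, Lyz2, Ms4a7, Apod, Czib, Dctn4 and Emc1, both signs were the same and 0 slopes passed on hippocampal Cd33, with adjusted p-values of 0.11 to 0.94. Gpnmb, a glycoprotein gene of phagocytic cells, was 9.29 to 10.98 with the CD33 ASO at 28 days and 10.50 to 11.76 with the control, a difference of -1.14 ± 0.18 (adjusted p = 0.00048), and its slope on Cd33 was -0.48 (adjusted p = 0.28). Lgals3 differed by -1.15 with a slope of -0.84 (adjusted p = 0.11), and Lyz2 by -0.87 with -0.34 (adjusted p = 0.46). Ms4a7 differed by -1.08 with a slope of -0.23, Lyz1 by -0.71 with -0.28 and Apod, an apolipoprotein gene, by -0.58 with -0.16. Czib, Dctn4 and Emc1, higher by 0.25, 0.17 and 0.45, had slopes of 0.08, 0.02 and 0.03. The signs of slopes that did not pass are a description.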

How the data were processed

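RNA of single hippocampi was hybridised to Illumina mouse bead arrays. The authors deposited a linear signal intensity per probe, background-subtracted and not normalized, with a detection p-value for each probe. BeadStudio, GenomeStudio and Partek are named per the submitters' processing notes, without settings. A second deposited table held processed log2 values for 19542 of 25697 probes; its log2 base was read from the values, the step behind its low values is unknown, and it served as an alternative only. Probes were named from the platform annotation: 18348 had 1 gene symbol, 0 several and 7349 none, over 13076 symbols.

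Intensities were normalized with neqc of limma 3.58.1 (R 4.3.3; negative controls inferred from the detection p-values, offset 16, quantiles over 90 arrays). The offset compresses differences of dim genes, Cd33 included. Kept were 13271 probes detected (p-value under 0.01) on at least 9 arrays; the brightest per gene gave 9741 genes, 9740 without Cd33. Slopes were fitted with lmFit and eBayes, two-sided, with Benjamini-Hochberg adjustment over all 9740 genes at 0.05; adjusted p-values are limma's. Permutations within duration numbered 100000, whose smallest p is 1e-05. Named genes were those passing on hippocampal Cd33, with the next of smallest p to 15, and from each list up to 4 passing members or the 2 of smallest p, the 16 ASO-changed genes and the 10 most like Cd33. The 10 steepest each way on cortical Cd33 and Pdpn, Cluh, Flt1, Mog, Mbp, Cldn11, Irf9, Gbp2, Foxj1, Ttr, Clic6, Kl, Folr1, Aqp1, Kcne2, Trem2 and Fibcd1 were named after their values were seen. Members and the 28 gene lists (275 genes tested) were chosen with earlier results of these data known, and lists can share genes. Alternatives were normalization, background, detection filter, chip, covariates, predictor, duration, replicate block and omission of arrays.

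The number of arrays limits the precision. Tested on simulated data with 9740 genes, the fit on hippocampal Cd33 recovered 32.8%, 77.6% and 98.5% of slopes of 0.25, 0.5 and 1, with 9 false among 148 calls, and that on cortical Cd33 31.3%, 80.6% and 100%, with 8 false among 149. The simulated fits used the Cd33 of these arrays, so the array with the most Cd33 was part of the design. They held 200 true slopes and gave 148 and 149 calls, against 8 and 196 in the data. The adjusted threshold is stricter with fewer calls, so the rates can overstate the recovery of the fit on hippocampal Cd33. Error in Cd33 itself and genes that vary together were not assessed.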

Additional observations from a re-analysis of the deposited data

Results flagged for a closer look

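Among 200 groups of 9 hippocampal arrays tested for a single value far from the rest, 8 had one, and chance gives about 1 in 20 groups, or 10. With the CD33 ASO at 14 days these were Hspb1 at 7.09 (replicate 8, low), Fpr2 at 6.69 (replicate 1, high), Dctn4 at 11.8 (replicate 6, high), and, both on replicate 5, Grn at 11.8 (high) and Trem2 at 10.5 (low). With the control ASO at 14 days they were H2-DMa at 9.98 (replicate 6, high), Ctsc at 8.67 (replicate 5, low) and Fcer1g at 11.7 (replicate 2, high). The 28-day groups, with 13 arrays each, were too large for this test.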

How the results depend on the processing

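On hippocampal Cd33, 8 genes passed. The count was 15 with median scaling, 3 without further background correction, 16 without a detection filter and 20 with detection on at least 9 of the 22 arrays. It was 23 without the duration, 5 with adjacent-tissue covariates, 31 with the rank of Cd33, 285 with robust regression and, on the 28-day arrays alone, 1 not among the 8. It was 0 with the chip as a block (958 unadjusted; Avil -1.57, adjusted p = 0.052), with the second Cd33 probe, with floored Cd33, on the 14-day arrays alone, without the 2 arrays farthest from the median, with the oligodendrocyte covariate and, 0 again, with a replicate block. Leaving out 1 array gave 0 to 57: 0 without the 28-day replicate 11, 5 without the 28-day replicate 4, 8 or 10 or the 14-day replicate 2, 13 without replicate 1 of either duration, 15 without the 28-day replicate 9, 32 without replicate 2 and 57 without replicate 6 of 28 days. All 8 slopes kept their direction throughout, except Mcam at -0.047 with the replicate block. On cortical Cd33, where most alternatives were chosen after seeing the data, the count was 196. It was 64 with the chip, 50 of them among the 196. With covariates it was 3 for adjacent tissue, 0 for microglia and 98 for oligodendrocytes, 88 of these among the 196. Ranks gave 10, all among the 196, and hippocampal Cd33 gave 12, of which 10 were. A replicate block gave 0, the 28-day arrays 52, of which 49 were, and the 14-day arrays 0. Without the 2 farthest animals 1 gene passed, which was not among the 196. Leaving out 1 animal gave 0 to 310: 0 without replicate 5, 20 without replicate 1, 122 without replicate 10 and 299 without replicate 2 of 28 days, and 310 without the 14-day replicate 6. On the 14-day arrays 7 of the 196 slopes changed sign, among the named genes Fcgr4 (0.036), Fpr2 (0.44) and Ctsh (0.038), and with the replicate block 1 did. The control ASO count was 2 without a filter, and the cortical one 7 in the authors' table. The correlation of Cd33 between tissues stayed positive in all alternatives run, 0.512 at the lowest, without further background correction. Same-numbered 14- and 28-day arrays came from different animals by their animal numbers, so the replicate numbers do not pair animals. Such arrays correlated at -0.28 to 0.45 in 9 pairs, with 2 best matched to their own number. The replicate block is thus an arbitrary grouping. The 28-day replicates 10 to 13, replicate 11 included, share their number with no 14-day array and cannot inform a slope within blocks. The counts and signs under this block are therefore a description only. The causes of these moves were not tested beyond the smaller numbers of arrays. Cd33 near background limits every slope on it.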
